A study of Mus musculus with 2 samples.

Results

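Calponins, transgelins, alpha-actinins, filamins, tropomyosins and vinculin bind actin filaments and set how the filaments are bundled, crosslinked and tied to adhesion sites. The 9 genes described here are Cnn3 and Cnn2 (calponins), Tagln2 (a transgelin), Actn1 and Actn4 (alpha-actinins), Flna (filamin A), Tpm1 and Tpm4 (tropomyosins) and Vcl (vinculin), out of 18193 genes that a platform annotation pairs with at least 1 probe set of their own. They were taken as all probe sets annotated to exactly 1 gene, that gene being on the list, which gave 22 probe sets; 0 probe sets were shared between a listed gene and another gene. The genes were chosen by their MAS5 signals on these same 2 arrays, among other known results, so the levels below are a description and no test supports them.

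Gene expression was measured on Affymetrix arrays in Tregs (regulatory T cells), a CD4+ lineage that restrains immune responses and is defined by the transcription factor Foxp3. The cells were sorted by flow cytometry as CD4+Foxp3+ from spleens of naive mice on the C57BL/6 background at 10 weeks of age. The DNR array was made from mice with a dominant negative TGF-beta receptor II, a receptor form that blocks the response to TGF-beta, and the WT array from wild-type mice. Each genotype had 1 array, the labels state neither how many mice gave each RNA nor which promoter drives the transgene, and the sorting text of the WT sample repeats the DNR one although its title, source and genotype say wild type.

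Actin filaments give T cells their cortex, their leading edge during migration and the contact they form with other cells. Alpha-actinins and filamin A crosslink filaments, tropomyosins lie along them and control which other proteins reach them, calponins and transgelins bind along their sides, and vinculin links them to integrin adhesions. Many genes of this kind are known targets of serum response factor (SRF), which binds a DNA element called the CArG box, and in other cell types several of them respond to TGF-beta.

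Because Cnn3 and Actn1 were the listed genes with the largest differences, their promoters are printed, with those of Cnn2 and Vcl, the 2 listed genes whose window held a CArG box. Each is the 250 bases upstream of the RefSeq gene start in build GRCm38.p6, 5′ to 3′ on the gene's strand. The Cnn3 window is chr3:121426291-121426540 on the + strand, that of Actn1 chr12:80260364-80260613 on the - strand, that of Cnn2 chr10:79988350-79988599 on the + strand and that of Vcl chr14:20929148-20929397 on the + strand. Capitals mark the CArG box and the GC box GGGCGG, each searched on both strands (CCGCCC is the GC box on the other strand).
Cnn3: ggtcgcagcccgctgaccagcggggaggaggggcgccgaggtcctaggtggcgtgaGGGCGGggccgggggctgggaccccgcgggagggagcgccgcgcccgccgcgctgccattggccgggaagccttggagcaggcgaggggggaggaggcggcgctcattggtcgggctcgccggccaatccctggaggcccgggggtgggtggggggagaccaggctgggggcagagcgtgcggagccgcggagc
Actn1: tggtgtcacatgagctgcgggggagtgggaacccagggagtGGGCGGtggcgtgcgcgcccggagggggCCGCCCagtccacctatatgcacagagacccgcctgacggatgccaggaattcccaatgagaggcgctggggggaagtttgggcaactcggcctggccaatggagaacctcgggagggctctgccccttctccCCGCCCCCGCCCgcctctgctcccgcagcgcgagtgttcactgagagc
Cnn2: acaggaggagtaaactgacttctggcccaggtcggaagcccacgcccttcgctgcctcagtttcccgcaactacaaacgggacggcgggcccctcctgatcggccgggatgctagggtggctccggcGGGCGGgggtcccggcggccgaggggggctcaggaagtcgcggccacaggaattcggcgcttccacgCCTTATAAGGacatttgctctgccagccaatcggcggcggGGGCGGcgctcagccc
Vcl: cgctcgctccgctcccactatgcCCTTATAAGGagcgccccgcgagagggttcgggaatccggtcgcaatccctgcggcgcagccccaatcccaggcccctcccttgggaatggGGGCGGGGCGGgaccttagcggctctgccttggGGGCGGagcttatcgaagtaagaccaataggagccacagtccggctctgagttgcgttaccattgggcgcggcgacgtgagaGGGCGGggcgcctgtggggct

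All 9 listed genes matched a promoter, and 2 of 9 windows held the CArG box. It began at position -56 from the gene start in Cnn2 and at -227 in Vcl, and 1.47% of all 32851 RefSeq windows of this length held it. The windows of Cnn3 and Actn1 did not hold those letters. The GC box was present in 9 of 9 windows, from 1 match in Cnn3 and Tpm1 to 5 in Tpm4, against 32.7% of all windows and 76.5% of the 9178 windows with a GC content of at least 60%; the listed windows had a GC content of 60% to 78.8%, against a median of 52.4% over all windows. The SMAD-type element CAGAC was found in 2 of 9 windows (Tagln2 and Actn4) and in 42.2% of all windows. Other short sequences were searched as well. CATTCC was in 5 of 9 windows (Tagln2, Actn4, Flna, Tpm1 and Vcl). It was in 12.6% of all windows and in 8.13% of those with a GC content of at least 60%. GTCTAGAC and TATAAA were in 0 of 9 windows, against 0.17% and 12.4% of all windows. These matches describe the letters of the windows and not binding.

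Signals are MAS5 values on a linear scale in arbitrary units. Values under a floor of 110.9, the higher of the array medians, were set to that floor before a ratio was taken, and a ratio with 1 array under it is a bound, written "at least". A gene is represented by its brightest probe set, and log2 ratios are those of DNR over WT. With 1 array per genotype there was no replicate check, so no p-value or SD between mice can be given and a difference is described by its size. The spread between probe sets of the same gene, a robust SD of 0.39 in the log2 ratio of a probe set over 3968 genes, is the error that can be estimated; it holds no variation between mice, sorts or hybridisations.

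In these arrays 2 of the 9 genes, Cnn3 and Actn1, had a signal at least 2-fold lower in DNR Tregs, and 0 were at least 2-fold higher. Over all 11927 genes with a signal above the floor on at least 1 array, 2.93% were at least 2-fold lower and 4.00% at least 2-fold higher. Since the list was drawn up from these ratios, its count is given beside that background and nothing is read from it. At 1.5-fold, 3 of the 9 were lower (Vcl in addition) and 1, Tagln2, was higher, where the background was 9.85% lower and 12.8% higher. The median log2 ratio of the 9 genes was -0.09 and that of all 11927 genes 0.01.

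**Figure D1:**
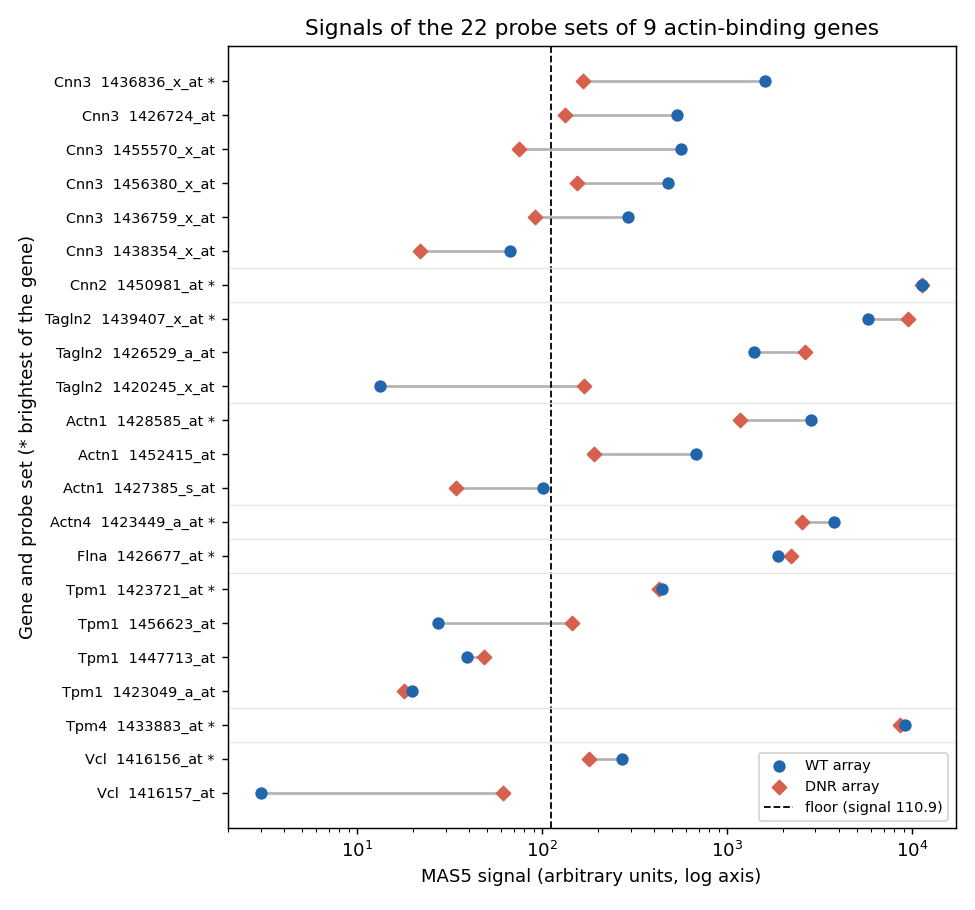
MAS5 signal (log axis, arbitrary units) of each of the 22 probe sets of the 9 genes, with the WT array as circles, the DNR array as diamonds and the floor of 110.9 as a dashed line; each point is 1 array. For the 5 Cnn3 and 2 Actn1 probe sets with a WT point above the floor the DNR point lies to its left, while the points of Cnn2 and Tpm4 nearly coincide.

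Of the 22 probe sets, 13 exceeded the floor on both arrays, 2 in DNR only, 2 in WT only and 5 on neither. Of the 17 above it on at least 1 array, 7 were at least 2-fold lower in DNR Tregs, 5 of Cnn3 and 2 of Actn1, and 0 at least 2-fold higher. Over all 20764 such probe sets with 1 gene, 3.30% were at least 2-fold lower and 3.93% at least 2-fold higher. Cnn2, Actn4, Flna and Tpm4 had 1 probe set each, so for these 4 genes no other probe set could be compared.

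Cnn3, which encodes the calponin of non-muscle cells known as acidic calponin, had a DNR signal of 167 and a WT signal of 1595 by its brightest probe set (1436836_x_at). The WT signal was 9.56-fold that of DNR, a log2 ratio of -3.26. Of the 9281 genes that exceeded the floor in DNR and WT alike, this ratio ranked 2 from the lowest. The probe set 1426724_at had 133 against 538, which was 4.04-fold lower in DNR. The probe set 1456380_x_at had 154 against 477, which was 3.09-fold lower. On 1455570_x_at the signals were 74.9 against 559 and on 1436759_x_at 91.6 against 289, with DNR under the floor, so the differences were at least 5.04-fold and at least 2.61-fold. The sixth probe set, 1438354_x_at, had 21.8 against 66.9 and was below the floor on both arrays, where values have no order. All 5 probe sets above the floor in WT were thus lower in DNR by at least 2-fold, and among the 3 above it in DNR as well the difference ranged from 3.09-fold to 9.56-fold. Of the 6, 5 carry the suffix _x_at, which marks probe sets with probes that can also bind other sequences; 1426724_at does not. On the DNR array the highest of the 6 signals was 167, close to the floor, so the size of the difference depends on values near it.

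Cnn2, the calponin known from blood cells and smooth muscle, was among the brightest of these genes on both arrays. Its probe set had 11358 on the DNR and 11357 on the WT array, a log2 ratio of 0.00017. The log2 ratio of Cnn3 minus that of Cnn2 was -3.26 by the brightest probe sets, while the Cnn3 probe sets 1426724_at and 1456380_x_at had log2 ratios of -2.02 and -1.63. The smooth muscle calponin Cnn1 was below the floor on both arrays, at 4.37 against 5.63.

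Tagln2, a calponin-related transgelin of leukocytes that stabilises actin filaments at the contact between T cells and other cells, was the listed gene with the highest ratio. Its brightest probe set (1439407_x_at) had 9481 in DNR and 5766 in WT Tregs, 1.64-fold higher in DNR. The probe set 1426529_a_at had 2628 against 1403, which was 1.87-fold higher. The third, 1420245_x_at, had 168 against 13.3 and was at least 1.52-fold higher. The DNR array was the brighter one on each of the 3. The first and second were under 2-fold, and for the third only the bound is known. Tagln, the related smooth muscle gene, was near the floor with 178 against 92.2, and Tagln3 was below the floor on both arrays.

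Actn1, the alpha-actinin that crosslinks actin at adhesions and is known as a transcript of naive T cells, had 1165 on the DNR and 2849 on the WT array by its brightest probe set (1428585_at), 2.44-fold lower in DNR. On 1452415_at the signals were 191 against 675, 3.54-fold lower. The third probe set, 1427385_s_at, was below the floor on both arrays at 34.3 against 101. Both probe sets above the floor were thus lower in DNR. The Actn1 ratio ranked 92 from the lowest among the same 9281 genes.

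Actn4, the other non-muscle alpha-actinin, which also has a nuclear pool, had 2535 against 3759, 1.48-fold lower in DNR. Its log2 ratio of -0.57 was 1.45 times the probe set SD in size and rests on 1 probe set. The log2 ratio of Actn1 minus that of Actn4 was -0.72. The muscle actinin Actn2 went the other way at 481 against 257, 1.87-fold higher in DNR, while Actn3 was below the floor on both arrays. The 3 actinins above the floor therefore did not share a direction.

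Flna, the filamin that crosslinks actin into orthogonal networks and binds integrin tails, had 2205 in DNR and 1879 in WT Tregs, 1.17-fold higher. This log2 ratio of 0.23 is smaller than the probe set SD. The muscle filamin Flnc was below the floor on both arrays.

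Tpm4, a tropomyosin of non-muscle cells and platelets, had 8585 against 9153, a difference of 1.07-fold. Tpm1 had 426 against 446 by its brightest probe set (1423721_at), a difference of 1.05-fold. A second Tpm1 probe set, 1456623_at, had 144 against 27.2 and was at least 1.30-fold higher in DNR, and the remaining 2 were below the floor on both arrays. Both tropomyosins thus lay within the probe set SD of equality by their brightest probe sets. Tpm3, another tropomyosin of non-muscle cells, was 1.13-fold higher by its brightest probe set at 26953 against 23748, but its other 4 probe sets were lower, with log2 ratios of -0.21 to -0.80. The muscle-type Tpm2 had 146 against 97.7, near the floor.

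Vcl, which connects talin and actin at integrin adhesions, was dim, with 180 on the DNR and 270 on the WT array (1416156_at), 1.5-fold lower. Its other probe set, 1416157_at, had 61.6 against 3.0; both values lie below the floor, so their order carries no direction. Talin itself (Tln1) was 1.28-fold higher at 1133 against 886, and zyxin (Zyx), another adhesion protein, was nearly equal at 497 against 481.

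**Figure D2:**
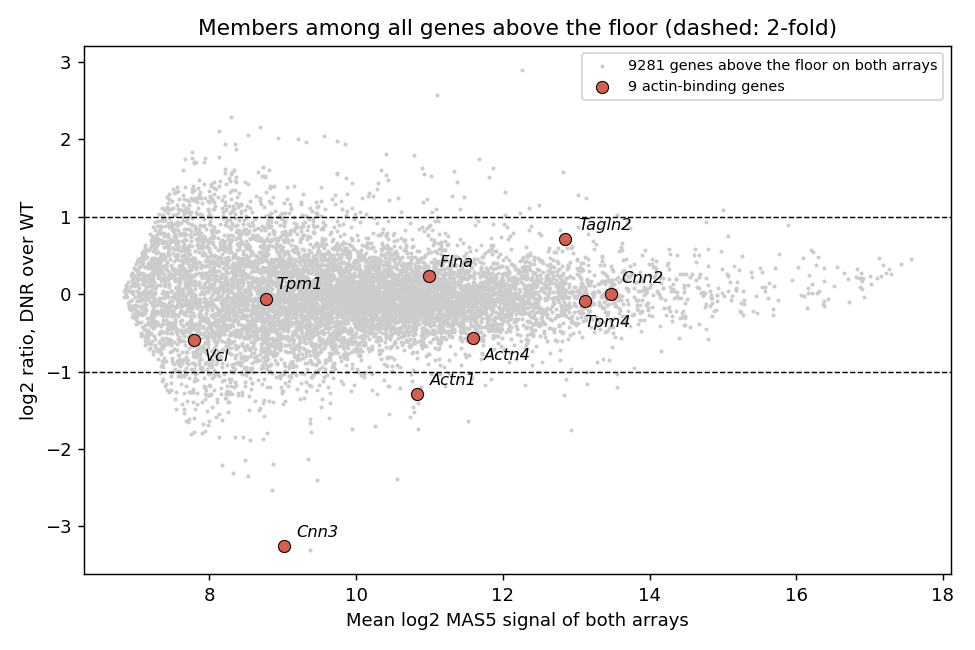
Log2 ratio of DNR over WT (vertical axis) against mean log2 MAS5 signal of both arrays (horizontal axis) for the 9281 genes that exceeded the floor in DNR and WT alike (grey) and the 9 genes (red), each point 1 gene by its brightest probe set, with dashed lines at 2-fold. Cnn3 lies at -3.26 and Actn1 at -1.29, below the lower line, and the other 7 lie between the lines.

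In order of log2 ratio the 9 genes ran from Cnn3 (-3.26) and Actn1 (-1.29) through Vcl (-0.59), Actn4 (-0.57), Tpm4 (-0.09), Tpm1 (-0.07), Cnn2 (0.00017) and Flna (0.23) to Tagln2 (0.72). The neighbours Vcl and Actn4, and likewise Tpm4, Tpm1, Cnn2 and Flna, differed by less than the probe set SD of 0.39. Cnn3 and Actn1 lay further apart than that SD by their brightest probe sets, but the Cnn3 probe set 1456380_x_at, at -1.63, lay within it of the brightest of Actn1.

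The genes most like Cnn3 were sought by ratio among 3483 genes of similar mean signal (within 1 on the log2 scale). They were Sox4, a transcription factor, at 211 against 2092 (log2 ratio -3.31), Siah1a, a ubiquitin ligase, at 192 against 1108 (-2.53), and Gsta4, a glutathione transferase, at 308 against 1618 (-2.40). For Actn1, with 3228 candidates, they were H2-Ob, an MHC class II related chain, at 796 against 1951 (-1.29), Bcl2l11, a pro-apoptotic BCL2 family gene, at 633 against 1508 (-1.25), and Clec2d, a C-type lectin, at 775 against 1829 (-1.24). Likeness over 2 arrays is a match in size only. Between 2 arrays a ratio has a single value, so it does not define a pattern.

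The other genes of the actin cytoskeleton were taken from a list of 80 genes by role, of which 76 had a probe set of their own and 66 were above the floor on at least 1 array. Of the 66, 33 were higher and 33 lower in DNR Tregs, 1 was at least 2-fold lower and 0 at least 2-fold higher, and the median log2 ratio was 0.01. Over all measured genes 2.93% were at least 2-fold lower and 4.00% at least 2-fold higher. At 1.5-fold 8 of the 66 were lower and 4 higher, and 54 lay within it. The shares over all measured genes at 1.5-fold were 9.85% lower and 12.8% higher.

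Of the 4 actins on the list 3 were above the floor on at least 1 array, 2 of them higher and 1 lower in DNR Tregs. The non-muscle actins were bright on both arrays. Actb (beta-actin) had 91608 against 61802, 1.48-fold higher, with a second probe set at a log2 ratio of 0.33. Actg1 (gamma-actin) had 92495 against 63487, 1.46-fold higher. The smooth muscle actin Acta2 had 4.61 against 156 and was at least 1.41-fold lower, and Actc1 was below the floor on both arrays. The array's beta-actin control probe sets had log2 ratios of 0.33 at the 3′ end, 0.23 in the middle and -0.0066 at the 5′ end. The ratio of 3′ to 5′ beta-actin signal, a measure of RNA integrity and labelling, was 6.31 on the DNR and 4.98 on the WT array, and that of Gapdh 2.28 against 2.07; their part in the differences was not tested.

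In the wider list, 3 roles with at least 3 measured genes had all of them on 1 side, where 48.6% of all measured genes were lower in DNR Tregs and 51.4% higher. The 7 membrane linkers, which tie actin to the cell membrane, were lower as reported, with a median log2 ratio of -0.34, but 6 of 7 were lower and 1 higher when the arrays were scaled to a common median or the median over probe sets was used. The lowest were the adducins Add1 (1659 against 3115, 1.88-fold) and Add3 (2506 against 4463, 1.78-fold), and Ezr (ezrin) was nearly equal at 11730 against 11931. The 3 genes of the SRF axis were lower under each of the 8 settings: Srf by 1.61-fold (901 against 1454), its coactivator genes Mrtfa by 1.29-fold and Mrtfb by 1.26-fold. The 4 measured tropomyosin relatives and pointed-end caps were higher by their brightest probe sets. They ran from Tmod3 (1.10-fold) to Tmod1, a tropomodulin, at 263 against 137 (1.92-fold). Tpm2 and Tpm3 also had probe sets that were lower in DNR. With the median over probe sets, and without suffixed probe sets, 3 of these 4 genes were higher and 1 lower. None of these genes reached 2-fold, and no test was made of any of these groups.

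Focal adhesion genes were mostly nearly equal or slightly higher, 8 of 11 higher with a median log2 ratio of 0.11, though 6 of 11 by the median over probe sets. Of the formins 1 was higher and 3 lower, with a median log2 ratio of -0.36, though 2 and 2 by the median over probe sets. Of the bundlers, which join filaments side by side, 1 was higher and 3 lower (median -0.28). Of 11 measured genes of the Arp2/3 complex, which branches actin filaments, and its activators, 7 were higher, with Actr3 at 39010 against 26431 (1.48-fold). After quantile normalization, and by the median over probe sets, 6 of these 11 were higher. Non-muscle myosin was split, 2 higher and 2 lower, with Myh9, its heavy chain, 1.16-fold lower at 28126 against 32563 by its brightest probe set. Of the 5 Myh9 probe sets 3 were higher in DNR, by log2 ratios of 0.11 to 0.14. With the median over probe sets, and without suffixed probe sets, 3 of the 4 myosin genes were higher. Of 12 genes that sever or cap filaments or bind actin monomers, 5 were higher and 7 lower. By the median over probe sets 7 were higher and 5 lower, and with either other scaling 6 and 6. Without suffixed probe sets 6 were higher and 4 lower. The 1 gene past 2-fold was Cfl2, a cofilin, at 165 against 507 (3.08-fold lower). A second Cfl2 probe set of nearly the same mean signal (335 against 336) had 351 against 320 and went the other way, so the direction for Cfl2 depends on the probe set.

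**Figure D3:**
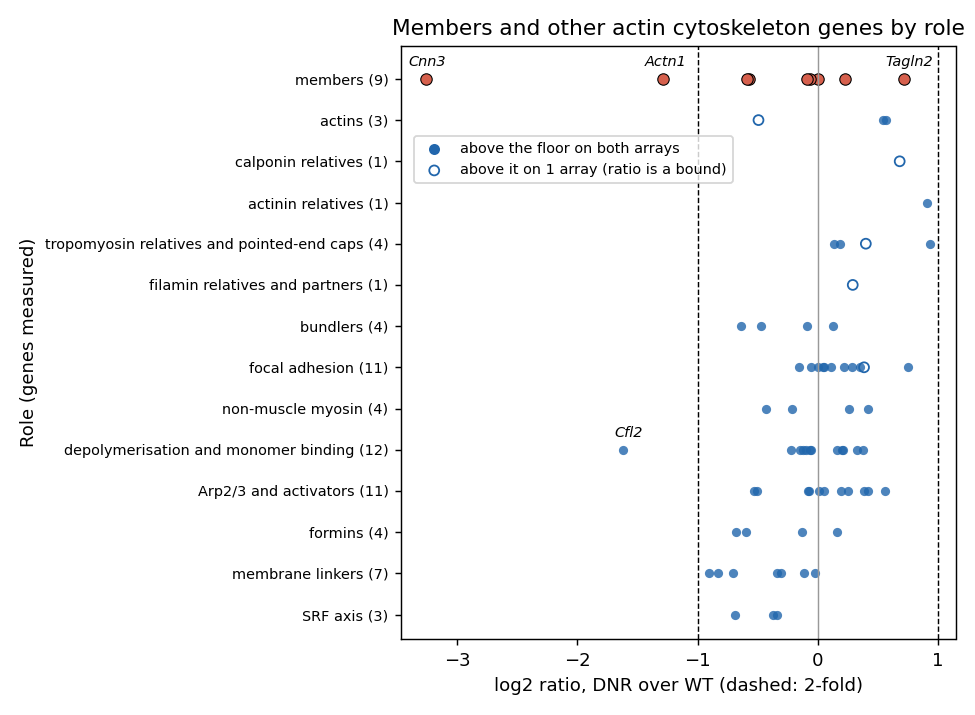
Log2 ratio of DNR over WT (horizontal axis) of the 9 genes (red, top row) and of the 66 measured genes of the wider actin cytoskeleton list by role (blue), each point 1 gene; open points are above the floor on 1 array, so their ratio is a bound, and dashed lines mark 2-fold. Cnn3, Actn1 and Cfl2 lie left of the 2-fold line, and all 7 membrane linkers lie left of 0.

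The cell type label was checked on its markers. Foxp3 had 4550 on the DNR and 3754 on the WT array, and the T cell genes Cd3d (31996 against 30370) and Cd3g (19441 against 16858) were bright on both. Cd4 was modest at 415 against 595. Of the 8 listed Treg and T cell markers 5 were higher in DNR and 3 lower, and 0 reached 2-fold. Ctla4 (52119 against 41217) and Ikzf2 (23891 against 16696) were higher. Il2ra (3969 against 4591) and Cd3e (4388 against 4668) were lower. The mouse Tgfbr2 probe set that was bright had 5457 against 8193; which part of the receptor the transgene carries is not given, so it does not check the genotype. The median DNR over WT ratio of the 18 hybridisation spike-in probe sets was 1.95, with 18 of 18 brighter in DNR, and the median signals over 45037 probe sets were 110.9 and 91.0.

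Other cell types of the spleen make calponins, actinins and vinculin, so their markers are given beside these results. The sums below add the signals before the floor was applied. They also take in markers below the floor, so their ratio can differ from those of the measured genes. Platelet and megakaryocyte markers, from cells rich in filamin A, vinculin and tropomyosins, summed to 1086 on the DNR and 1150 on the WT array, with 2 of 5 measured genes higher and 3 lower. Of the 8 listed, Pf4, Ppbp and Gp9 were below the floor on both arrays. Itgb3 (548 against 448) and Gp5 (177 against 24.7) were higher in DNR. Itga2b (194 against 253), Gp1bb (71.0 against 133) and Treml1 (17.2 against 134) were lower. Smooth muscle and stromal markers summed to 620 against 540, 5 of 9 were below the floor on both arrays, among them Cnn1, Myh11 and Col1a1, and the highest signal of the list was 218. Of the 4 measured stromal markers 2 were higher in DNR, Des (218 against 109) and Tagln (178 against 92.2), and 2 were lower, Acta2 (4.61 against 156) and Pdgfrb (7.62 against 117), with a median log2 ratio of 0.30. Macrophage and monocyte markers summed to 3953 against 5422. Of the 8 measured genes 7 were lower in DNR (6 of 8 with either other scaling), the direction of Cnn3, Actn1, Actn4 and Vcl. C1qa was lower by 2.39-fold and Vcam1 by 2.04-fold. Csf1r (1449 against 1799), Lyz2 (449 against 668) and Cd68 (125 against 212) were lower by less than 2-fold. C1qb (641 against 652) and Adgre1 (252 against 275) were nearly equal. Itgam went the other way (135 against 11.5), above the floor in DNR only. Fcgr1 was below the floor on both arrays. Neutrophil markers summed to 1207 against 316, with 3 of 3 measured genes higher, in the same direction as Tagln2 and Flna. Of the 5 listed, S100a9 and Camp were below the floor on both arrays. S100a8 (285 against 47.1) and Ngp (287 against 37.7) exceeded it in DNR only, and Mmp9 on both arrays (537 against 184). B cell markers summed to 1008 against 844. Cd79b was higher (869 against 666), Ms4a1 lower (76.4 against 126), and Cd79a and Pax5 were below the floor on both arrays. CD8 T and NK cell markers summed to 821 against 635, with 3 of 4 measured genes higher. Cd8b1 was lower (171 against 294), and Ncr1 exceeded the floor in DNR only (168 against 9.61). The red cell markers were below the floor on both arrays. The part of these cells in the differences was not tested. In bulk samples fewer cells of a type and less RNA per cell cannot be told apart.

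The member ratios were recomputed under 7 other settings of floor, scaling and probe set choice. Some settings cannot change a given gene, such as a new floor where both signals stay above it. Actn1 was 2.38-fold to 2.94-fold lower under each, but the floor settings and the suffix filter left its value as it was. Cnn3 was 4.04-fold lower by the median over its probe sets and also when probe sets with a suffix were left out, and at least 9.54-fold lower with the floor at the 60th percentile, where its DNR signal is under the floor. Tagln2 lay between 1.64-fold and 1.69-fold higher under the 6 that gave it a value, Actn4 between 1.44-fold and 1.48-fold lower under 6, and Vcl between 1.46-fold and 1.61-fold lower. Cnn2 and Tpm1, both close to equality, each changed sign under 1 setting.

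**Figure D4:**
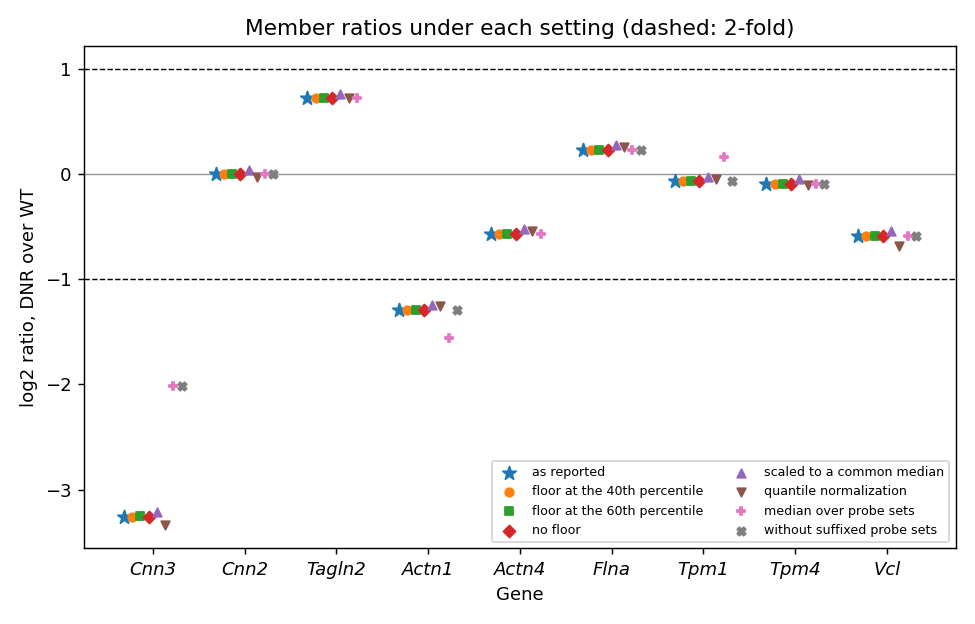
Log2 ratio of DNR over WT (vertical axis) of each of the 9 genes as reported (star) and under each of the 7 other settings (other markers), with dashed lines at 2-fold. Cnn3 spans -3.34 to -2.02 and Actn1 -1.56 to -1.25, both below the lower line under every setting, and the other 7 genes stay between the lines. Where a setting cannot change the value of a gene, its marker repeats the value of the star.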

How the data were processed

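Total RNA of DNR and WT splenic Tregs was labelled with biotin, per the labels' protocols, and hybridised to 1 array per genotype. The authors deposited linear signal intensities, 1 for each probe set on each array, computed with MAS5 per the submitters' processing notes, which give no version. After trimming 2% of values at each end the arrays had means of 499.8 and 499.8, so they had been scaled to a common mean, which multiplies background along with signal. Detection calls and scanner values were not used here.

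Of 45101 probe sets, 64 controls were set aside, and the platform annotation gave 34945 of the other 45037 exactly 1 gene. All 9 symbols matched RefSeq's through the Entrez identifier. Values under the higher array median (110.9) were set to it, and the probe set with the highest mean signal stood for its gene. No test was made, and precision is limited by how few arrays there are.

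The members and gene lists were chosen with earlier results of these data known. Named are all members, their nearest relatives, the wider list's genes past 2-fold and the 3 genes nearest in ratio to Cnn3 and to Actn1; other genes named by role or as markers were chosen after their values were seen. Alternatives were the floor, scaling, probe set choice, suffix filter and threshold. The procedure was tested on simulated data, with changes placed only in genes well above the floor and shared by all probe sets of a gene. That setting covers neither values near the floor nor probe sets that disagree. Python 3.11.15, numpy 2.4.6 and pandas 2.3.3 were used. Promoters are from RefSeq (GRCm38.p6); the labels name no build for the array data, so no other coordinates are printed.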

Additional observations from a re-analysis of the deposited data

How the results depend on the processing

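Of 61 values of the 9 genes under the alternative settings, 59 moved by less than the probe set SD of 0.39 and 2 by more: Cnn3 was at -2.02 with the median over probe sets and at -2.02 without _a_at, _s_at and _x_at probe sets. Many of the 59 could not move. A change of floor leaves a ratio as it was where both signals stay above the floor. A choice among probe sets changes nothing where the same probe set still stands for the gene. The 59 are therefore no measure of stability. For 2 near-equal genes the sign differed, with Cnn2 at -0.03 after quantile normalization and Tpm1 at 0.16 by the median over probe sets. The setting without suffixed probe sets gave no value for Tagln2 and Actn4, which have no other probe set.

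Counts depended on the threshold and the floor. At 1.5-fold 1 of the 9 genes was higher, and at 3-fold 1 was lower. Of the wider actin genes 1 was at least 2-fold lower as reported; 8 were lower and 4 higher at 1.5-fold, 2 lower with a floor at percentile 40, 5 lower and 2 higher with no floor, 2 lower without suffixed probe sets, and 0 lower with the common median, with quantile normalization and with the median over probe sets, where the other Cfl2 probe set or a median stood for Cfl2. Over all genes 477 were higher and 350 lower as reported; 1526 and 1175 at 1.5-fold, 56 and 63 at 3-fold, 1026 and 550 with a floor at percentile 40, 3617 and 2655 with no floor, and 250 and 246 with a floor at percentile 60, where the excess of higher genes nearly vanished. Low signals limit Vcl, the DNR values of Cnn3 and the dimmer probe sets. No paired analysis was possible because each group has 1 array.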
